A study of Homo sapiens with 6 samples.

Results

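CCR1 and CCR3, a pair of chemokine receptor genes, were followed in LP-1 cells depleted of RNF5. LP-1 is an established human multiple myeloma line, a tumour of plasma cells. The 2 genes were picked by their names from the 1877 genes of the authors' deposited table, which holds only genes selected by the authors for a change between the groups. RNF5, a ubiquitin ligase of the endoplasmic reticulum, was depleted with a short hairpin RNA in 3 libraries, and 3 libraries came from LP-1 cells carrying a non-target control. All 6 were total RNA of cells grown in RPMI-1640 with serum. The labels do not say how many hairpins were used, when the cells were harvested or whether a group's libraries came from separate cultures. Any p-value computed here therefore measures only the spread between these libraries, which may be technical. What the authors' own p-values measure is not known, because no source used here states their test.

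Chemokine receptors span the cell membrane 7 times and pass the binding of a chemokine to G proteins of the inhibitory class, which sets off calcium release and directed migration. CCR1 binds CCL3, CCL5 and CCL7 and is best known from monocytes, neutrophils and the precursors of osteoclasts, and myeloma cells secrete CCL3 in bone disease. CCR3 binds the eotaxins CCL11, CCL24 and CCL26 as well as CCL5 and CCL7, and it marks eosinophils and basophils. The genes lie in a cluster of chemokine receptor genes on the short arm of chromosome 3.

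In the GENCODE 29 annotation (GRCh38), CCR1 (ENSG00000163823) occupies bases 46201709 to 46208396 of chromosome 3 on the minus strand, with 1 transcript of 2 exons. CCR3 (ENSG00000183625) occupies bases 46163604 to 46266706 on the plus strand, with 8 transcripts. The longest reach of CCR3 belongs to 1 of them, CCR3-201, whose first intron of 46828 bases holds the whole of CCR1 in the opposite direction. The other 7 transcripts of CCR3 begin downstream of CCR1, the nearest of them 33985 bases from the start of CCR1. No exon base is shared between the genes. The sources used here do not say whether the authors' counting used strand. Without strand, reads from an unspliced CCR3-201 transcript and from CCR1 could not be told apart.

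**Figure D1:**
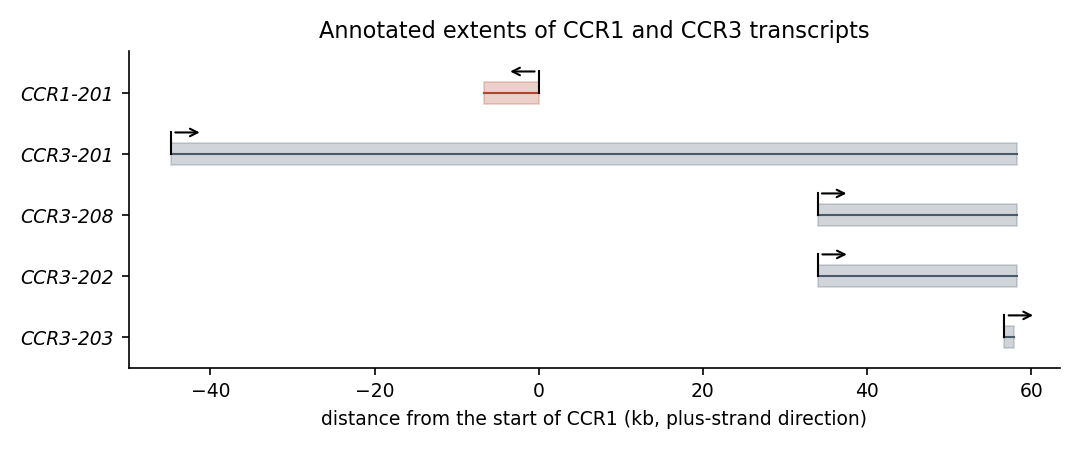
Annotated extents of CCR1 and of the 4 CCR3 transcripts with the widest coding parts, drawn from GENCODE 29. The x axis is the distance from the start of CCR1 in kilobases along the plus strand, boxes run from transcript start to end with introns included, and arrows give the direction of transcription. CCR1 sits inside CCR3-201 and points the other way, while CCR3-208, CCR3-202 and CCR3-203 start to its right.

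The coding sequences of the genes are related, so it was measured how much of them a short read could share. Each codes over 1065 bases (CCR1-201 and CCR3-202). In a global alignment 767 of 1052 aligned bases were identical, which is 72.9%. Of the 2701 different stretches of 31 bases in the CCR1 transcript, 1 also occurred in a CCR3 transcript, and none occurred in the GENCODE transcripts of any other gene on either strand. The same stretch was the only one of the 3611 in CCR3 transcripts that another gene held. It is shown with 15 bases on each side, from base 326 to base 386 of both coding sequences, because it is the longest exact match of the coding sequences. Capitals mark the shared bases.
CCR1: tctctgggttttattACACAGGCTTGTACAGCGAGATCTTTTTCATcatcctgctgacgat
CCR3: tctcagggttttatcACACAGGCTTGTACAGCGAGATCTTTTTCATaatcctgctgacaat
An exact match longer than these 31 bases would therefore place a read in one gene or the other. The sources used here give neither the read length nor the mismatches allowed in the authors' alignment.

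The sequence before the starts was compared because both genes were higher in the same libraries. The RefSeq promoter windows (GRCh38.p14) run from 250 bases before to 50 bases after an annotated start. There is 1 window for CCR1, chr3:46208264-46208563 on the minus strand, and there are 2 overlapping windows for CCR3, of which chr3:46242131-46242430 on the plus strand is printed. Capitals mark the longest run of letters that the windows share.
CCR1: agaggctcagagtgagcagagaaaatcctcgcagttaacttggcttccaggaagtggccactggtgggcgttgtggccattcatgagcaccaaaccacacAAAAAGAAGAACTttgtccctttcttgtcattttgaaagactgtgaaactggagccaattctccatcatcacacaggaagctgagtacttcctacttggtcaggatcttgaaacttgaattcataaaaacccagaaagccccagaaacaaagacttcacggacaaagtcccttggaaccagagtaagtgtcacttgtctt
CCR3: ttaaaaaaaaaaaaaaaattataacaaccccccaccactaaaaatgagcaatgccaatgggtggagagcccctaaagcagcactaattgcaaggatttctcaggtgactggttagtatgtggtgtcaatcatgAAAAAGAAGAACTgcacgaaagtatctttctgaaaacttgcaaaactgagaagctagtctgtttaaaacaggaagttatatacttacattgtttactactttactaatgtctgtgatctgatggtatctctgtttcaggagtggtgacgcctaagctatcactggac
The shared run AAAAAGAAGAACT has 13 bases and begins 150 bases before the start of CCR1 and 117 bases before that of CCR3. Among 35116 promoter windows of the RefSeq table the run was present in 3, the CCR1 window and both CCR3 windows. The run was looked for after the windows had been read and was defined by them. The 2 overlapping CCR3 windows hold the same copy of it. The count is therefore a description, and no shared function is read from it. The motifs TGCTGA (from the MAF recognition element), GAANNTTC (the core of a heat shock element), TGANTCA (AP-1) and GAGGAA (from a PU.1 site) were searched on both strands. None was found in the 3 windows of CCR1 and CCR3. These motifs occurred in 17.3%, 6.77%, 7.71% and 27.9% of all windows. Shorter forms were not searched, and the shorter string GGAA occurs in both printed windows.

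CCR1 was higher in every knockdown library than in any control library. Its normalized abundance, on the authors' scale, was 44.89, 52.52 and 49.92 in knockdown libraries 1, 2 and 3, against 8.55, 7.59 and 5.66 in control libraries 1, 2 and 3. The lowest knockdown value was 5.25 times the highest control value. The mean was 49.1 ± 3.88 in the knockdown and 7.27 ± 1.47 in the control (SD, n = 3 each), a ratio of 6.76. On the scale of log2(value + 1) the difference was 2.61 (SE 0.19). The authors' deposited table gave a log2 fold change of 2.58 and an adjusted p of 2.67e-94. By this adjusted p, whose test is not stated, CCR1 ranked 9th and CCR3 394th among the 1877 genes of the authors' deposited table.

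CCR3 was also higher in every knockdown library, and its control level was close to 0. Its normalized abundance was 4.45, 5.14 and 4.40 in knockdown libraries 1, 2 and 3, against 0.46, 0.35 and 0.31 in control libraries 1, 2 and 3. The groups were set apart by more than for CCR1, with the lowest knockdown value 9.57 times the highest control value. The mean was 4.66 ± 0.41 in the knockdown and 0.373 ± 0.078 in the control (SD, n = 3 each), a ratio of 12.5, and the difference was 2.04 on the log2(value + 1) scale (SE 0.16). The authors' deposited table gave a log2 fold change of 3.34 and an adjusted p of 1.29e-12. By log2 fold change, CCR3 ranked 32nd and CCR1 74th among the 924 genes listed as higher in the authors' deposited table.

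**Figure D2:**
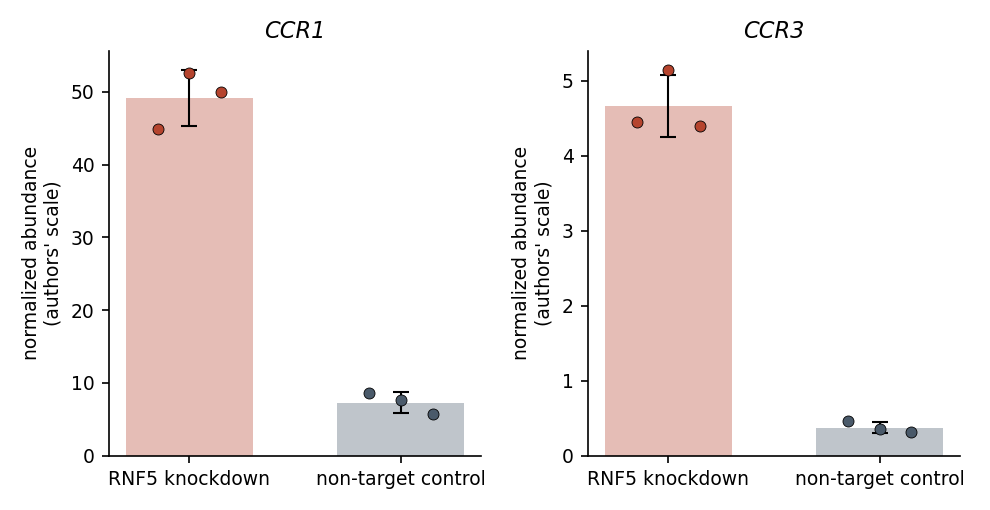
Normalized abundance of CCR1 (left panel) and CCR3 (right panel) on the authors' scale, with 1 point for each library, bars at the mean and error bars of 1 SD (n = 3 each). In both panels the 3 knockdown libraries lie above the 3 control libraries, at 44.89 to 52.52 against 5.66 to 8.55 for CCR1 and at 4.40 to 5.14 against 0.31 to 0.46 for CCR3.

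These values are a description and carry no test, because both genes are known here through this same contrast. Groups without overlap were the rule in a table chosen for change: they were found in 93.2% of the 1877 genes, and 47.7% of the 1877 had the knockdown on the higher side. The authors' deposited table listed 49.2% of its genes as higher. Which of the pair moved more depended on the pseudocount. The difference was larger for CCR3 by the ratio of means and with a pseudocount of 0.1 (3.34 for CCR3 and 2.76 for CCR1, log2), and larger for CCR1 with 0.5 (2.56 for CCR3 and 2.69 for CCR1) and with 1. The order thus follows how strongly a low control level is weighted.

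The ratio of CCR1 to CCR3 within a library does not depend on how libraries were scaled against each other. It was 10.1, 10.2 and 11.3 in knockdown libraries 1, 2 and 3, against 18.6, 21.7 and 18.3 in control libraries 1, 2 and 3. The mean ratio was 10.6 ± 0.69 in the knockdown and 19.5 ± 1.89 in the control (SD, n = 3 each), and the groups did not overlap. CCR1 had the larger value in each of the 6 libraries, by a smaller factor in the knockdown. It is not known whether the authors' values are per length, so the ratio is not one of transcript numbers, and no order of the genes' true levels is drawn from it.

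Within the groups the genes spread by a similar share of their mean. The coefficient of variation of CCR1 was 7.90% in the knockdown and 20.3% in the control, and that of CCR3 was 8.87% in the knockdown and 20.8% in the control. Control library 3 held the lowest control value of both. Among the 598 genes whose mean was 5 or more, it was the lowest control library in 428. Without it the ratio of means was 6.09 for CCR1 and 11.5 for CCR3. Leaving out any 1 library gave ratios from 6.09 to 7.41 for CCR1 and from 11.5 to 14.1 for CCR3, both highest without control library 1.

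The targeted gene was at 81.35 to 95.40 in the knockdown libraries, against 1248 to 1649 in the control libraries, which leaves RNF5 at 5.90% of its control mean. The authors' log2 fold changes were below the log2 ratios of means by a median of 0.17 over 431 genes whose means reached 5 in both groups. CCR1 had a log2 ratio of means of 2.76 and CCR3 one of 3.64, so both exceeded the authors' values in that direction. All knockdown values divided by this median offset left CCR1 at 2.44 and CCR3 at 1.90 on the log2(value + 1) scale. In the fit of the whole table (limma on log2(value + 1), genes reaching a value of 1 in at least 3 libraries), 1260 of 1290 genes, or 97.7%, had an adjusted p under 0.05, 55.7% being higher and 42.0% lower in the knockdown. CCR3 entered that fit only through its knockdown libraries. Among 1078 tested genes with a name, CCR1 had the 4th and CCR3 the 22nd largest rise in the fitted difference.

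**Figure D3:**
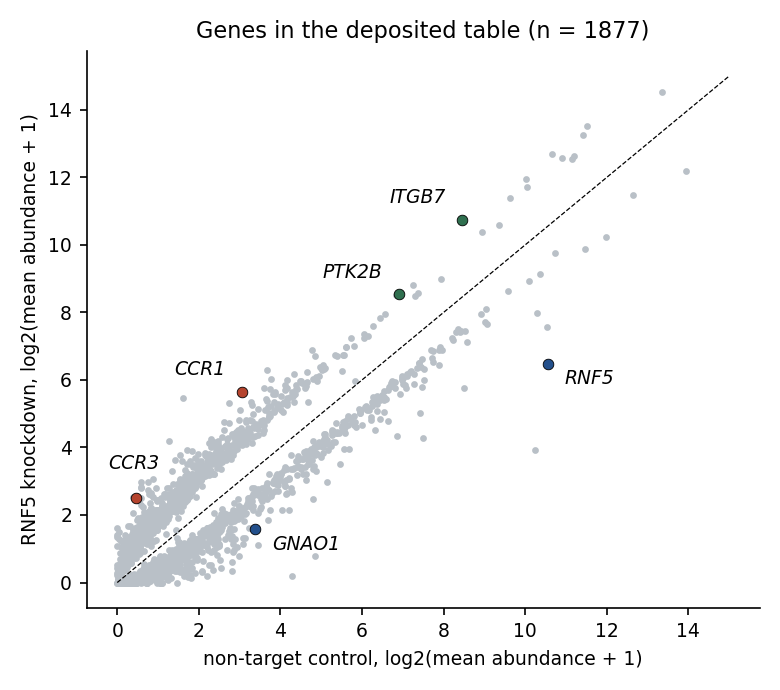
Mean abundance of the 1877 listed genes in the knockdown (y axis) and in the control (x axis), both as log2(mean + 1), with the line of equal values dashed. CCR1 and CCR3 (red) lie above the line, as do ITGB7 and PTK2B (green), while RNF5 and GNAO1 (blue) lie below it.

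Of the other chemokine receptors and their ligands no gene was in the deposited table. The list of 18 chemokine receptors had CCR1 and CCR3 alone. The 8 atypical or related receptors, the 16 ligands of CCR1 or CCR3 and the 28 other chemokines had none. Of the ligands 15 were looked up by identifier and 1 by its name alone. The genes without a row have no values here, and since only changed genes were listed, their level cannot be told. It is therefore unknown whether LP-1 cells made CCL3, CCL5 or an eotaxin in either group.

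Signalling genes that act behind these receptors were listed in both directions. Of a chosen list of 38 genes for G protein subunits, receptor kinases, arrestins and regulators of G protein signalling, 4 were in the table. All 4 passed limma, 2 higher and 2 lower, in a table of which 97.7% passed. The list was not exhaustive. Outside it, GNAZ was higher in the knockdown (mean 4.09, against 0.743 in the control). GNA13 (23.3 and 46.7), RGS9 (0.993 and 1.71) and RGS22 (0.03 and 0.5) were lower. GNAO1, the alpha subunit of the Go protein, fell to 2.02, 1.83 and 2.17 in knockdown libraries 1, 2 and 3, against 9.87, 11.87 and 6.45 in control libraries 1, 2 and 3 (log2 difference -1.76, SE 0.23, limma adjusted p = 3.94e-05). RGS1, which speeds the shut-off of inhibitory G proteins and restrains chemokine responses in B cells, fell to 3.23, 4.34 and 3.91, against 6.64, 6.46 and 7.65 in the control libraries (log2 difference -0.72, SE 0.19, limma adjusted p = 0.00355). For neither gene did the groups overlap, as for 93.2% of the 1877 listed genes.

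RGS19, another regulator of the same class, rose to 3.47, 3.62 and 3.28 in the knockdown libraries, against 1.08, 1.14 and 0.78 in the control libraries (log2 difference 1.16, SE 0.17, limma adjusted p = 7.38e-05). GNB3, a beta subunit, rose to 3.02, 3.35 and 3.04, against 0.69, 0.93 and 0.57 in the control libraries (log2 difference 1.26, SE 0.16, limma adjusted p = 3.22e-05). GNB3 entered the fit only through its knockdown libraries and could not be fitted when any 1 of them was left out, so its p-value is no support. RGS1 and RGS19 moved in opposite directions. Of a chosen list of 30 genes for chemotaxis effectors 1 was in the table, PTK2B. It encodes the tyrosine kinase PYK2 that chemokine receptors activate through calcium. This list was not exhaustive either. Other genes with roles in cell migration were in the table, with CORO1A, DOCK8 and VAV3 higher and SRC and TIAM2 lower in the knockdown. PTK2B rose to 362.0, 381.6 and 367.3 in the knockdown libraries, against 139.0, 132.6 and 83.98 in the control libraries (log2 difference 1.67, SE 0.19, limma adjusted p = 2.10e-05).

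Receptors for other chemoattractants were listed at low values. Of 25 such genes 3 were in the table, and none reached the level needed for the fit. C3AR1, the receptor of complement fragment C3a on myeloid cells, eosinophils and basophils included, had 0.95, 1.06 and 2.23 in the knockdown libraries, against 0.75, 0.08 and 0.07 in the control libraries. PTGDR2, the prostaglandin D receptor that eosinophils and basophils carry beside CCR3, had 0.09, 0.14 and 0.07 in the knockdown libraries, against 0.47, 0.38 and 0.26 in the control libraries. HRH4, a histamine receptor of the same cells, had 0.02, 0.09 and 0.10 in the knockdown libraries, against 0.25, 0.34 and 0.25 in the control libraries. The 3 receptors thus did not share a direction, with C3AR1 higher and PTGDR2 and HRH4 lower in the knockdown. In none of them did the groups overlap, but this held for 93.2% of the 1877 listed genes. For C3AR1 the nearest values of the groups were 0.95 and 0.75.

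Listed genes were also sought in the neighbourhood of the receptor cluster. Within 1000000 bases of CCR1 and CCR3, GENCODE 29 places 31 other protein-coding gene symbols, and 1 of them, LTF, was listed. LTF, which encodes lactoferrin, had 0.30, 0.25 and 0 in the knockdown libraries, against 0.71, 0.24 and 0.41 in the control libraries, too low for the fit and with overlapping groups. The authors' deposited table gave it as lower, with a log2 fold change of -4.03. Among the protein-coding genes of this stretch, CCR1 and CCR3 were the only ones listed as higher, and genes of other classes were not examined. The share of all protein-coding genes that were listed was not computed, so 1 of 31 is not read as few or many.

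In myeloma CCR1 is known as a target of the transcription factor MAF, together with the integrin gene ITGB7 and the cyclin gene CCND2. Of 9 genes in a list of MAF family members and reported targets, CCR1 and ITGB7 were in the deposited table. ITGB7 rose to 1665, 1703 and 1756 in the knockdown libraries, against 397.8, 410.0 and 244.1 in the control libraries (log2 difference 2.32, SE 0.19, limma adjusted p = 2.50e-06). MAF itself and CCND2 had no row, so their levels are not known. Over the 9 lists without cell type markers, 10 of 178 genes other than CCR1 and CCR3 were listed. The 6 of these that could be tested passed, 4 higher and 2 lower. GNB3, 1 of the 4, entered the fit only through its knockdown libraries. Passing says little in a table of which 97.7% passed, and the genes had been chosen on these same libraries.

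**Figure D4:**
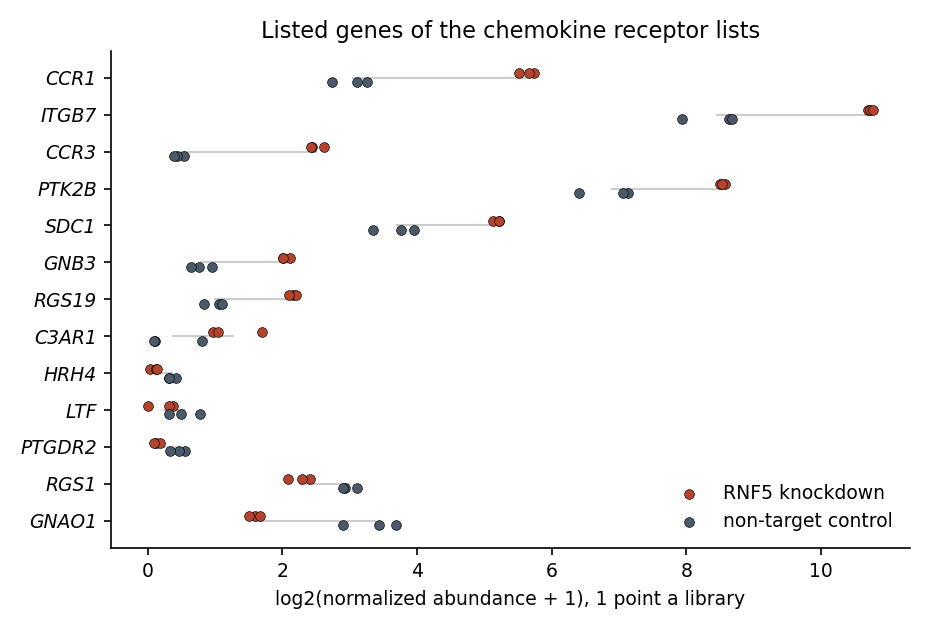
Each gene of the receptor, signalling, neighbourhood, MAF and marker lists that was in the deposited table, with 1 point for each library as log2(normalized abundance + 1), knockdown libraries in red and control libraries in grey, and a line between the group means. CCR1, ITGB7, CCR3, PTK2B, SDC1, GNB3 and RGS19 are higher in the knockdown and GNAO1 and RGS1 lower. C3AR1 is also higher in the knockdown, at 0.95 to 2.23 against 0.07 to 0.75 before the logarithm, and HRH4, LTF and PTGDR2 lie near 0.

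Markers of cells that carry CCR1 or CCR3 in the body were looked for beside them. None of 16 eosinophil and basophil markers, 16 monocyte and macrophage markers and 14 T and NK cell markers was listed. They have no values here, and their part in the rise was not tested. Of 14 plasma cell markers 1 was listed. SDC1, the gene of the plasma cell surface proteoglycan CD138, rose to 36.08, 34.13 and 36.19 in the knockdown libraries, against 12.54, 14.45 and 9.20 in the control libraries (a ratio of means of 2.94, limma adjusted p = 3.94e-05). No other gene of that marker list has values here to check the labelled cell type. In bulk RNA, more cells with a transcript and more of it in each cell cannot be told apart.

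The genes most like CCR1 over the 6 libraries were sought among 1077 other named genes in the fit, by the root mean square distance between values of log2(value + 1) centred on each gene's mean. The nearest was ITGB7 at a distance of 0.19, followed by SMOC1, CAMK2A, LINC02362 and ITGA8 at 0.22 to 0.24. CAMK2A, a calcium-dependent kinase, averaged 5.92 ± 0.50 in the knockdown and 0.497 ± 0.268 in the control. It entered the search only through its knockdown libraries. ITGA8, an integrin subunit, had 31.18, 35.96 and 34.42 in knockdown libraries 1, 2 and 3, against 8.42, 7.41 and 5.35 in control libraries 1, 2 and 3. Its libraries ranked in the same order as those of CCR1 in both groups. Parts of this order were common in the table. Of the 598 genes whose mean was 5 or more, 428 had their smallest control value in control library 3. In 333 of the 598, the smallest knockdown value fell in knockdown library 1. The share of genes with the full order was not computed. ITGA8 had also been picked for its nearness on these same values. CCR3 was the 15th nearest to CCR1, at 0.31.

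The genes nearest to CCR3 were FAT1, at a distance of 0.06, then the mitochondrial genes MT-ND6, MT-CO1 and MT-ND5, and RAB36 at 0.11. Their nearness holds on the log2(value + 1) scale, which understates the change of CCR3. The ratio of means was 4.44 for FAT1 and 3.83 to 4.13 for the mitochondrial genes, against 12.5 for CCR3. With a pseudocount of 0.1 none of these mitochondrial genes was among the 5 nearest. FAT1, an atypical cadherin, had 23.68, 27.87 and 24.21 in knockdown libraries 1, 2 and 3, against 5.70, 5.98 and 5.39 in control libraries 1, 2 and 3. RAB36, a small GTPase, averaged 7.30 ± 0.22 in the knockdown and 0.843 ± 0.060 in the control. It entered the search only through its knockdown libraries. CCR1 was the 77th nearest to CCR3. These orders rest on the pseudocount. With 0.1 in place of 1, CCR1 was the 4th nearest to CCR3 and RAB36 the nearest, FAT1 stood 42nd, and 1 of the 5 nearest genes was shared with those named above, for CCR1 as for CCR3.

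**Figure D5:**
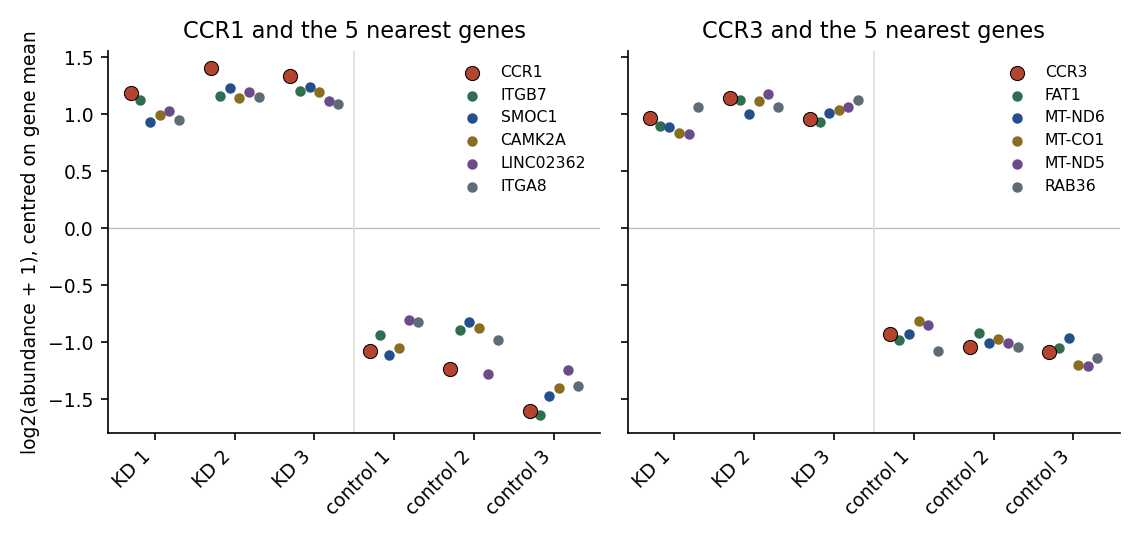
Values of log2(abundance + 1) centred on each gene's mean over the 6 libraries, for CCR1 (left panel) and CCR3 (right panel), each with its 5 nearest genes at the pseudocount of 1. Points of a library stand side by side. All genes are above 0 in the 3 knockdown libraries and below 0 in the 3 control libraries, and CCR1 has the widest gap of its panel.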

How the data were processed

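RNA was sequenced from 3 RNF5 knockdown and 3 control libraries of LP-1. Bowtie 0.12.2 and build hg19 are named, without a role, per the submitters' processing notes. The authors deposited a normalized signal per gene and library, with 2 decimals, on a scale that no source used here states. It holds no counts, so the depth is not known and counting error could not be estimated. The fold ratio the authors deposited is knockdown over control, with its log2 value. No source used here states the test behind the deposited p-value and adjusted p-value.

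The whole table was fitted on log2(value + 1) with limma 3.58.1 (R 4.3.3), using a mean-variance trend and the group as the design, for genes reaching a value of 1 in at least 3 libraries, and p-values were adjusted by Benjamini-Hochberg over all 1290 genes tested. This scale understates changes of low genes. The fit was tested on simulated data. Alternatives were the pseudocount, the filter, the trend, the scaling, the replicate block and leaving out each library. Python 3.11.15 and Biopython 1.88 served for the alignment and motif search. Genes of the lists were matched by identifier, except 1 ligand that was looked up by its name. CCR1, CCR3 and RNF5 were found by name.

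The members and lists were chosen with earlier results of these data known. Named were CCR1, CCR3, RNF5, the listed genes of the receptor, ligand, neighbour and MAF lists, up to 6 genes of each other list, and the 5 genes nearest to each member. Protein sequences were not used here.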

Additional observations from a re-analysis of the deposited data

How the results depend on the processing

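CCR1 and CCR3 were higher in the knockdown under each alternative that gave a value. For CCR1 the 10 alternatives moved the log2 difference of 2.61 by less than the spread between replicates, and leaving out 1 library gave 2.47 to 2.72. For CCR3 the log2 difference of 2.04 was 3.34 with a pseudocount of 0.1, 2.56 with 0.5 and 1.90 after division of the knockdown values by their median offset from the authors' folds. The pseudocount weighs low control values by its construction. Leaving out 1 control library gave 2.01 to 2.09 for CCR3. Without a knockdown library CCR3 kept values of at least 1 in too few libraries for the fit and has no value. Genes changed in the whole table numbered 1260, from 1076 to 1161 with 1 library left out and 1787 of 1877 with no filter, where 50.6% were higher beside 57.0%. Of the other listed genes of the chemokine lists 6 changed, 5 or 6 with 1 library left out and 9 of 10 with no filter. GNB3 was among the 6 and had no value without a knockdown library.

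No pairing of the libraries by replicate number was seen, but the check could not exclude it. It used deviations from the means of 3 libraries, which sum to 0 within a group. Deviations of libraries with the same number correlated at -0.16, -0.07 and -0.08 for numbers 1, 2 and 3, and none correlated best with its own number. With the replicate block the differences were 2.61 (SE 0.26) for CCR1 and 2.04 (SE 0.21) for CCR3, and 1272 genes changed. The unknown depth limits CCR3 in the control, where 2 decimals and values under 0.5 leave few distinct steps.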

Other observations

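Other G protein-coupled receptors, found by the word in the authors' gene descriptions after the data were seen, were listed in both directions. The search matched 8, of which the authors' deposited table gave 3 as higher and 5 as lower. Of the 8, 4 were abundant enough for the fit. Other receptors were missed by the search, such as SSTR3, AVPR2 and OR1J1 among the higher genes and MCHR1 among the lower. GPRC5D, a surface antigen of plasma cells, rose to 4.96, 5.21 and 4.80 in knockdown libraries 1, 2 and 3, against 2.24, 1.59 and 0.73 in control libraries 1, 2 and 3 (log2 difference 1.30, SE 0.23, limma adjusted p = 0.000298). GPRC5B and ADGRV1 also rose, by log2 differences of 0.86 and 1.13, and GPR179 fell (-0.61). GPRC5B entered the fit only through its knockdown libraries and GPR179 only through its control libraries. Their control means were 0.41 to 2.90 and their ratios of knockdown to control means 3.80 for GPRC5B, 2.66 for ADGRV1 and 0.436 for GPR179. The ratios of CCR1 and CCR3, 6.76 and 12.5, were above those of the 3 receptors matched by the search that rose. This difference was not tested. Receptors missed by the search were left out, and the order does not hold for all of them. At low values, OR1J1 (mean 1.07 in the knockdown, 0.06 in the control) had a larger ratio than CCR3. OPRL1 (0.24 and 0.03) had a larger ratio than CCR1. The ratio of SSTR3 (124 and 47.7) was smaller than those of both.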
